A study of Homo sapiens with 8 samples.

Results

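Differentiated HepaRG cells exposed to 0.4 µM rotenone were compared with cells exposed to 0.2 µM rotenone, to describe which gene programs were higher, lower or turned at the second dose step. The members were the cells of 1 run of the experiment (run 5 in the sample names) whose sample name gives rotenone at 1 of these doses, with at least 500 genes and at most 20% of their UMIs from mitochondrial genes. A UMI is a unique molecular identifier, which lets each cDNA molecule be counted once. These were 413 cells at 0.4 µM and 449 cells at 0.2 µM, together 862 of the 12976 cells of the deposited table. The method was Parse Evercode, in which fixed cells collect barcodes over rounds of pooling and splitting into wells. HepaRG is a human hepatic cell line that differentiates into hepatocyte-like and cholangiocyte-like cells, here bought as terminally differentiated cells. All groups had the same solvent (DMSO, 0.1%) for 24 h, and all were dissociated with trypsin and collagenase in the presence of DTT, actinomycin D (an inhibitor of transcription) and anisomycin (an inhibitor of translation). The other groups used are 110 cells of a second culture at 0.4 µM (run 6) and the cells in DMSO alone of runs 3, 4, 5 and 6 (250, 127, 311 and 93 cells). Each dose had 1 culture in run 5, so within that run there is no test between doses. Ratios of run 5 carry a 95% interval for counting error and the range over 8 sublibraries, the aliquots into which the pooled cells were divided. The study treated 1 culture for each condition and what a run was is not given in the sources used here, so the spread between cultures may be technical.

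Rotenone blocks complex I of the mitochondrial respiratory chain, the entry point of electrons from NADH, and hepatocytes depend on this chain for much of their ATP. Cells read mitochondrial failure in part through the integrated stress response, in which phosphorylation of the initiation factor eIF2α lowers general translation and favours that of ATF4, a transcription factor for amino acid synthesis, amino acid uptake and tRNA charging. The heat shock response is a separate program in which HSF1 activates genes for cytosolic chaperones when unfolded proteins accumulate. Messenger RNAs of ribosomal proteins and several host genes of small nucleolar RNAs share a run of pyrimidines at their 5′ end, known as a 5′ terminal oligopyrimidine (TOP) tract, through which growth signals control their translation and stability.

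Promoter sequence is shown for some genes of the patterns described below whose windows hold the motif searched for, which most members of these patterns lack. The genes shown are ASNS and AARS1 among the genes lower at 0.4 µM and DNAJA1 and DNAJB6 among those higher. Each window runs from 250 bases before to 50 bases after the RefSeq start of the gene on GRCh38.p14, on the strand of the gene. Capitals mark the motif searched on both strands, TGATGNAA (the core of the C/EBP-ATF response element that ATF4 binds, TTNCATCA on the other strand) in ASNS (chr7:97872359-97872658, minus strand) and AARS1 (chr16:70289457-70289756, minus strand), and GAANNTTC (an inverted pair of heat shock units) in DNAJA1 (chr9:33025023-33025322, plus strand) and DNAJB6 (chr7:157336754-157337053, plus strand).
ASNS: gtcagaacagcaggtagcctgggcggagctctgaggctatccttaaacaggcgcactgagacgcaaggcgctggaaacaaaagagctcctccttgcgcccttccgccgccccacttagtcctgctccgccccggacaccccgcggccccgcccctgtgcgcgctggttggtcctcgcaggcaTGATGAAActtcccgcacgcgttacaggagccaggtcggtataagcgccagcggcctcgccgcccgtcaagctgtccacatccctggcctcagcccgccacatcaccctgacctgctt
AARS1: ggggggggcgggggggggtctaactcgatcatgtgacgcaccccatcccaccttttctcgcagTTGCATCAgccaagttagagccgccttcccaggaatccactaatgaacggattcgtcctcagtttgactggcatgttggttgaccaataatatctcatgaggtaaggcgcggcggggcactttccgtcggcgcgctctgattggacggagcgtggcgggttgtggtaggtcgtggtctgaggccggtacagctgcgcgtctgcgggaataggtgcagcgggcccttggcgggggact
DNAJA1: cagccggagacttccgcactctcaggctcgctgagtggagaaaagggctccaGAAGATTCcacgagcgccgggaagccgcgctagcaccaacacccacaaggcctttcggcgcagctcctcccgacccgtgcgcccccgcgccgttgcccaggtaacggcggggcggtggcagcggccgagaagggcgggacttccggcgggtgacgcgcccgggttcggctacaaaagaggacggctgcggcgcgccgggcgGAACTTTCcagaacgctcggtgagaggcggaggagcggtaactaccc
DNAJB6: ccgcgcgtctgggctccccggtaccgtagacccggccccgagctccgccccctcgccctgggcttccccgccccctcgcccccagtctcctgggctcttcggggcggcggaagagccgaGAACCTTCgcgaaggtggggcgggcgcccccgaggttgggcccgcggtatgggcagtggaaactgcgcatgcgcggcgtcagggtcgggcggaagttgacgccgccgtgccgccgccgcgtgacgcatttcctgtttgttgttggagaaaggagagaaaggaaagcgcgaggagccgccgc

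TGATGNAA was found in the windows of 6 of 16 cytosolic aminoacyl-tRNA synthetase genes with a RefSeq window, 3 of 14 amino acid transporter genes and 4 of 23 integrated stress response genes, against 3.67% of all 27305 windows. Among members at least 2-fold lower at 0.4 µM it was in 2 of 4 synthetase windows and 1 of 7 integrated stress response windows. GAANNTTC was found in 8 of 20 windows of cytosolic heat shock genes, in 2 of 9 of those at least 2-fold higher, and in 6.87% of all windows. A match is a description of the letters and not a site of binding.

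The first bases of RNAs that were higher at 0.4 µM are shown for 4 named genes that hold the pyrimidine run searched for below. Each is given as 10 bases before the RefSeq start and 20 from it, with the pyrimidine run at the start in capitals. Of other genes looked at in this way, RPS26, RPL17, GAS5 and NCL had no pyrimidine at the start, and SNHG1 had a run of 3 bases. RPL39 and RPL41 encode proteins of the large ribosomal subunit, NPM1 a nucleolar chaperone of ribosome assembly, and ZFAS1 is a noncoding host gene of small nucleolar RNAs.
RPL39: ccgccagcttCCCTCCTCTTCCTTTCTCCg
RPL41: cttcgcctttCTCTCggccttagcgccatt
NPM1: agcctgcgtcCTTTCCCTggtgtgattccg
ZFAS1: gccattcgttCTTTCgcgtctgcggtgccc
A C at the start followed by at least 4 bases that are C or T was searched for after the values were seen. It was present in 40 of 65 ribosomal protein genes with a window (61.5%) and in 15 of 21 of those at least 2-fold higher. It was also present in 3 of 11 small nucleolar RNA host genes, in 3 of 19 ribosome biogenesis genes and in 4.04% of all windows. Among all genes at least 2-fold higher at 0.4 µM it was present in 6.90%, among those at least 2-fold lower in 4.19%, and among all genes that passed the filter on expression in 5.83%.

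The kept cells held 93754929 UMIs at 0.4 µM and 97081214 at 0.2 µM, with a median per cell of 184485 UMIs at 0.4 µM and 184833 at 0.2 µM. Depth thus differed little between the doses, whereas the other 5 cultures held 3417334 to 33404488 UMIs in all and medians of 17080.0 to 79381 per cell. The limit on mitochondrial UMIs removed 80 of 493 cells at 0.4 µM and 304 of 753 cells at 0.2 µM in run 5, and no cell had fewer than 500 genes. In the run 6 culture at 0.4 µM it removed 121 of 231 cells. All 8 hepatocyte markers were detected at both doses, so the defining markers of the labelled cell type were present, with a summed level of 17718 CPM (UMIs of a gene per 1000000 UMIs of the culture) at 0.4 µM and 10376 CPM at 0.2 µM. The 9 cholangiocyte or progenitor markers summed to 142 CPM at 0.4 µM and 100.2 CPM at 0.2 µM, with KRT19 the highest at 0.4 µM (58.7 CPM, and 30.01 CPM at 0.2 µM) and SOX9 the highest at 0.2 µM (14.06 CPM at 0.4 µM and 33.99 CPM at 0.2 µM). The 8 macrophage or leukocyte markers summed to 13.0 CPM at 0.4 µM and 26.7 CPM at 0.2 µM, most of it from CD68, and none passed the filter on expression. The 7 endothelial markers, led by KDR, summed to 54.1 CPM at 0.4 µM and 22.00 CPM at 0.2 µM, with CLEC4M at 0 at 0.4 µM. The 9 stellate cell or fibroblast markers, led by LRAT, summed to 86.8 CPM at 0.4 µM and 200.2 CPM at 0.2 µM, with COL1A2 at 0 at 0.2 µM. In summed counts, fewer cells of a type and less RNA per cell cannot be told apart. No full barcode was held by more than 1 of the 862 cells, and 96 cells shared their combination of wells with a cell of another sublibrary.

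Of 7715 genes with a mean of at least 20 CPM over both doses in run 5, 901 (11.7%) were at least 2-fold higher and 1613 (20.9%) at least 2-fold lower at 0.4 µM than at 0.2 µM, and the median log2 ratio was -0.12. TMM factors add 0.32 to every log2 ratio of run 5 and move the median to 0.19, with 1624 genes higher and 1099 lower, so the balance of higher and lower genes depended on the scaling, and a ratio below 0 by less than 0.32 changes its sign. The median absolute log2 ratio was 0.68 between the doses, 0.32 between the cultures at 0.4 µM of runs 5 and 6, and 0.23 between the DMSO cultures of these runs. The dose step was therefore wider than the difference between cultures of 1 dose. edgeR's quasi-likelihood test was fitted to both cultures at 0.4 µM, the culture at 0.2 µM and 4 DMSO cultures, which share 1 estimate of the spread and so assume that the lone culture at 0.2 µM varies like the others. It called 1416 of 23277 genes higher (6.08%) and 3772 lower (16.2%) at an adjusted p under 0.05. With TMM factors the calls were 2187 higher and 2286 lower, and without the run 6 culture at 0.4 µM they were 1140 higher and 2503 lower.

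Along the doses of run 5, DMSO to 0.2 µM and 0.2 µM to 0.4 µM, 361 of 8162 genes (4.42%) were at least 2-fold higher at the first step and at least 2-fold lower at the second, and 196 (2.4%) did the opposite. Genes higher at both steps numbered 159 (1.95%) and genes lower at both 201 (2.46%). Both steps share the culture at 0.2 µM, so a high or low value there moves a gene into the opposite-way classes. At 0.4 µM, 289 of the 361 genes with a peak at 0.2 µM lay within 2-fold of the DMSO culture, and 130 of the 196 genes with a trough did. The peaking class held 6 of 22 integrated stress response genes, 5 of 20 cytosolic aminoacyl-tRNA synthetase genes and 4 of 26 genes of autophagy and the lysosome. The trough class held 8 of 14 drug metabolism genes and 4 of 27 plasma protein genes. Only 9 drug metabolism genes passed the filter over 0.2 and 0.4 µM, so others passed through their level in DMSO, which favours a fall at the first step. UGT2B15 was 1 of these, with sublibrary medians of 2.21 CPM at 0.2 µM and 27.1 CPM at 0.4 µM.

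**Figure D1:**
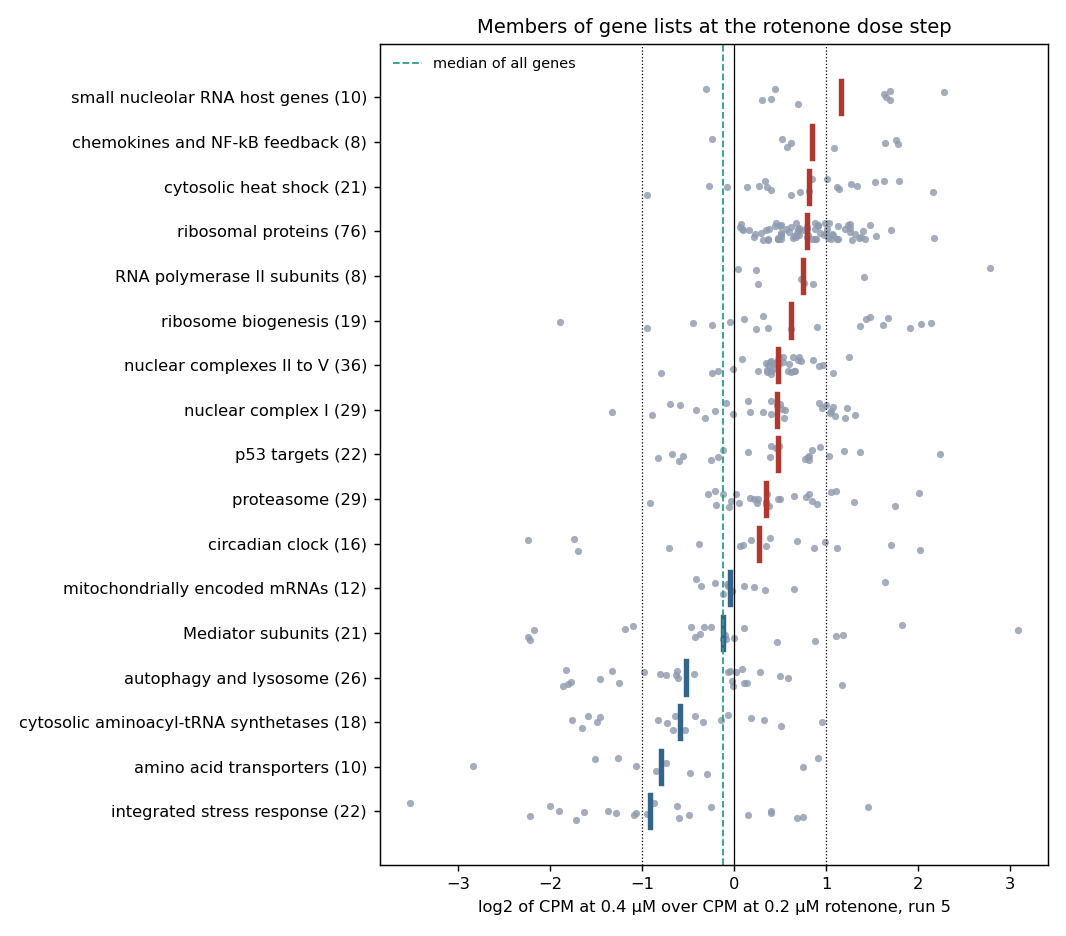
Log2 of CPM at 0.4 µM over CPM at 0.2 µM rotenone in run 5 (horizontal axis) for members of 17 gene lists (vertical axis, with the number of members that passed the mean of 20 CPM). Each point is a gene, thick bars are list medians, dotted lines mark 2-fold and the dashed line the median of all genes. The medians run from 1.16 for small nucleolar RNA host genes to -0.91 for the integrated stress response.

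In run 5, many genes of the integrated stress response were lower at 0.4 µM than at 0.2 µM, whereas the list as a whole was not in the second culture at 0.4 µM. Of 22 members that passed the filter, 10 were at least 2-fold lower and 1 at least 2-fold higher, against 20.9% and 11.7% of all genes, and the list median was -0.91, against -0.12 over all genes. The run 6 culture at 0.4 µM lay at a list median of -0.20 against the same culture at 0.2 µM, above the median of -0.31 over all genes. Together the members took 2449 CPM at 0.4 µM in run 5 and 3232 CPM at 0.4 µM in run 6, against 2980.2 CPM at 0.2 µM. In edgeR of 28 tested members 1 rose and 13 fell (3 and 8 with TMM factors), against 6.08% and 16.2% of all genes tested. TRIB3, a pseudokinase induced by ATF4 and CHOP (chromosome 20 from 362835 to 397559 of GRCh38), had 16.5 CPM at 0.4 µM and 190.3 CPM at 0.2 µM in run 5 (log2 -3.53, 95% counting interval -3.60 to -3.45). Over the 8 sublibraries TRIB3 lay between 10.9 and 24.6 CPM at 0.4 µM, with a median of 16.03, and between 163 and 214 CPM at 0.2 µM, with a median of 192, so the values at the doses did not overlap. It fell (edgeR log2 -3.43 ± 0.34 SE, adjusted p = 8.99e-05). In DMSO of run 5 TRIB3 stood at 7.48 CPM, and run 6 had 19.0 CPM at 0.4 µM and 4.15 CPM in DMSO, so both cultures at 0.4 µM lay above their DMSO cultures and far below the culture at 0.2 µM. ASNS, which makes asparagine and carries the element shown above, was at 11.6 CPM in DMSO, 275 CPM at 0.2 µM and 106 CPM at 0.4 µM. ASNS fell between the doses (edgeR log2 -1.63 ± 0.30 SE, adjusted p = 0.00218) and stayed above DMSO at both. CEBPG, a partner of ATF4 in binding DNA, was at 14.1 CPM in DMSO, 85.2 CPM at 0.2 µM and 22.8 CPM at 0.4 µM (edgeR log2 -1.99 ± 0.31 SE, adjusted p = 0.000804). ERN1, the IRE1 sensor of the endoplasmic reticulum, fell (edgeR log2 -2.56), and so did JDP2, a repressor of the AP-1 family (edgeR log2 -2.20).

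Several genes for tRNA charging and amino acid uptake fell as well, while the lists themselves lay nearer to the background. Of 18 cytosolic aminoacyl-tRNA synthetase genes that passed, 5 were at least 2-fold lower and 0 higher (median -0.59), after a median of 1.49 between 0.2 µM and DMSO in run 5. This share is near the 20.9% of all genes. Among the members of at most 30 kb the median was -0.12. The run 6 culture at 0.4 µM lay at a median of -0.84 against the same culture at 0.2 µM. AARS1 (alanine) was at 35.9 CPM in DMSO, 262 CPM at 0.2 µM and 76.9 CPM at 0.4 µM in run 5, and run 6 had 68.7 CPM at 0.4 µM and 27.4 CPM in DMSO. Over the 8 sublibraries AARS1 lay between 65.1 and 93.0 CPM at 0.4 µM, with a median of 75.4, and between 241 and 278 CPM at 0.2 µM, with a median of 263, again with no overlap. AARS1 fell (edgeR log2 -1.85 ± 0.28 SE, adjusted p = 0.000804), and so did YARS1 (tyrosine, edgeR log2 -1.70), SARS1 (serine, -1.57) and WARS1 (tryptophan, -1.89). Among amino acid transporters, 4 of 10 were at least 2-fold lower and 0 higher (median -0.79), against 20.9% and 11.7% of all genes, but among members of at most 30 kb the median was 0.03. SLC1A4, a carrier of neutral amino acids, had 6.05 CPM at 0.4 µM and 43.4 CPM at 0.2 µM (edgeR log2 -2.90 ± 0.36 SE, adjusted p = 0.000276). SLC7A1, the carrier of cationic amino acids, fell (edgeR log2 -1.62). SLC3A2, the shared subunit of several transporters, was at 115 CPM at 0.4 µM and 277 CPM at 0.2 µM in run 5 but at 236 CPM in run 6 (adjusted p = 0.212 from edgeR), and it passed the test without the run 6 culture (edgeR log2 -1.27). In mitochondrial one-carbon metabolism, MTHFD1L fell, with 58.9 CPM at 0.4 µM and 221 CPM at 0.2 µM (edgeR log2 -2.26 ± 0.33 SE, adjusted p = 0.000633).

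ATF4 and some other genes of the response were not called lower at 0.4 µM. ATF4 itself (chromosome 22 from 39519695 to 39522683) was at 65.1 CPM in DMSO, 229 CPM at 0.2 µM and 303 CPM at 0.4 µM in run 5, and run 6 had 416 CPM at 0.4 µM and 54.4 CPM in DMSO. Between the doses its log2 ratio was 0.41 in run 5 (sublibraries 0.25 to 0.50), and it did not pass the test (adjusted p = 0.194 from edgeR, 0.0807 with TMM factors). The ATF4 level was thus not lower at the dose where that of TRIB3 was. SLC7A11, the cystine and glutamate exchanger, had 525 CPM at 0.4 µM and 312 CPM at 0.2 µM (adjusted p = 0.12 from edgeR, 0.0407 with TMM factors). Among the genes that rose, GARS1, the glycyl-tRNA synthetase, was the 1 synthetase that rose, with 707 CPM at 0.4 µM and 365 CPM at 0.2 µM (edgeR log2 0.97 ± 0.30 SE, adjusted p = 0.0323). CTH, which makes cysteine, rose, with 177 CPM at 0.4 µM and 64.3 CPM at 0.2 µM (edgeR log2 1.35 ± 0.30 SE, adjusted p = 0.00695). GDF15, a secreted stress cytokine, was at 133 CPM at 0.4 µM and 158 CPM at 0.2 µM in run 5 and at 230.4 CPM at 0.4 µM in run 6 (adjusted p = 0.713 from edgeR). PPP1R15A, the phosphatase subunit that directs removal of the phosphate from eIF2α, was at 114 CPM at 0.4 µM and 161 CPM at 0.2 µM in run 5 and at 310.4 CPM at 0.4 µM in run 6 (adjusted p = 0.614 from edgeR). In run 5 the sublibraries of PPP1R15A did not overlap between the doses, but for both genes the culture at 0.2 µM lay between the cultures at 0.4 µM. DDIT3, which encodes CHOP, did fall, with 69.7 CPM at 0.4 µM and 128 CPM at 0.2 µM (edgeR log2 -0.99 ± 0.30 SE, adjusted p = 0.0331), but its adjusted p was 0.135 with TMM factors. The calls of GARS1 and DDIT3 were lost without the run 6 culture at 0.4 µM (edgeR log2 0.95 and -0.87), without DMSO of run 3 and without DMSO of run 6.

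**Figure D2:**
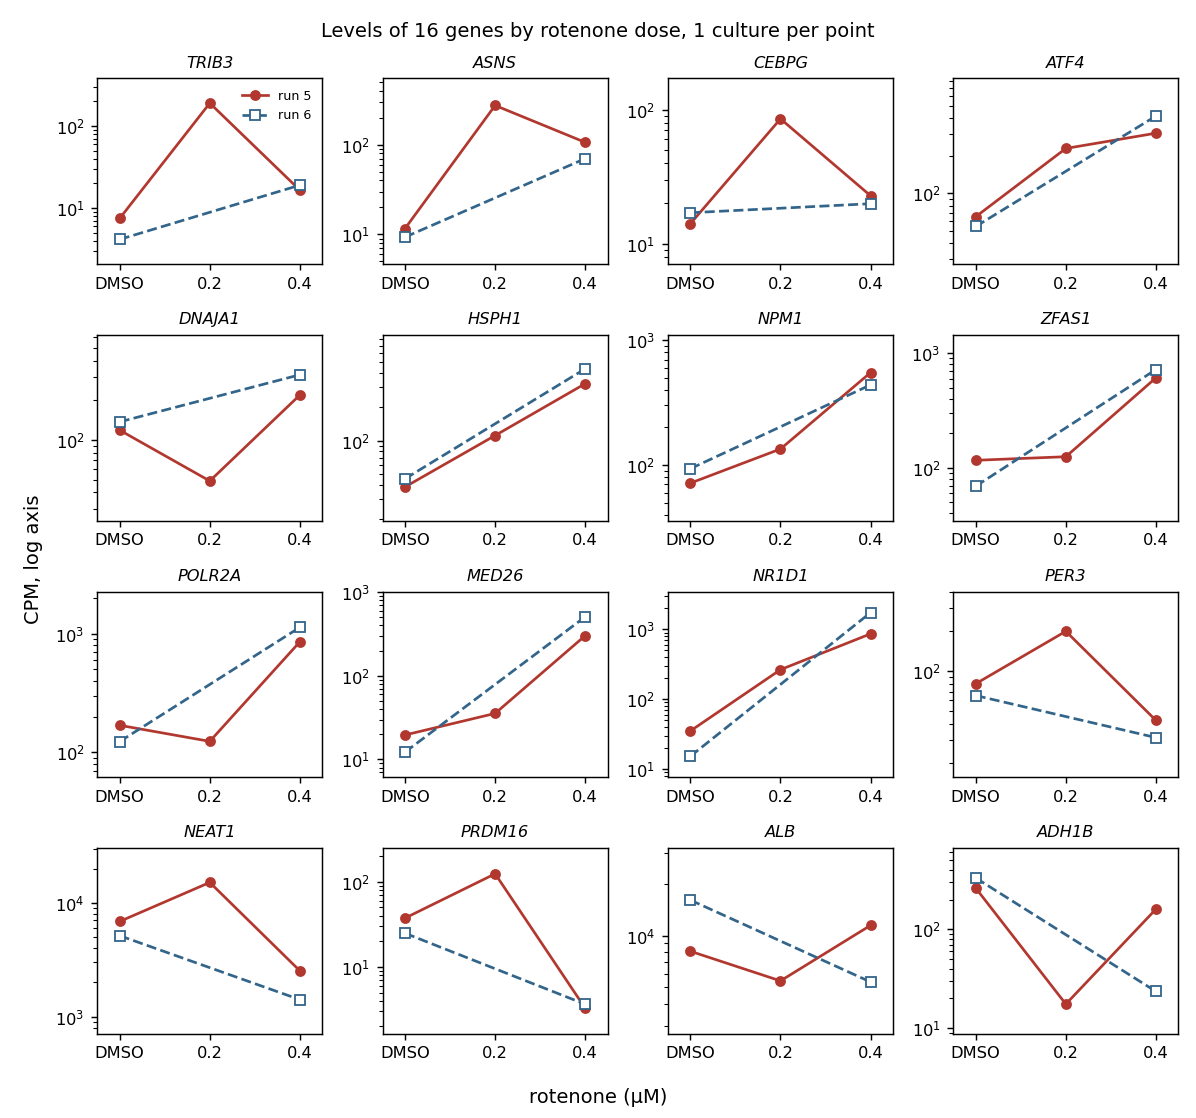
Level of 16 named genes in CPM (vertical axes, log scale) by rotenone dose in µM (horizontal axes), 1 culture per point, with run 5 in filled circles and run 6, which had no culture at 0.2 µM, in open squares. TRIB3, CEBPG, NEAT1 and PRDM16 peak at 0.2 µM, POLR2A and MED26 are high only at 0.4 µM, and ALB and ADH1B at 0.4 µM differ between the runs.

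Cytosolic heat shock genes were higher at 0.4 µM. Of 21 members that passed, 9 were at least 2-fold higher and 0 lower, against 11.7% and 20.9% of all genes. The list median was 0.81 in run 5 and 1.20 for run 6 against the same culture at 0.2 µM. In edgeR of 23 tested members 9 rose and 1 fell (13 and 0 with TMM factors). DNAJA1, a co-chaperone of HSP70 (chromosome 9 from 33025273 to 33039907), was at 119 CPM in DMSO, 48.9 CPM at 0.2 µM and 219 CPM at 0.4 µM in run 5, and run 6 had 312 CPM at 0.4 µM and 137 CPM in DMSO. Over the 8 sublibraries DNAJA1 lay between 199 and 235 CPM at 0.4 µM, with a median of 223, and between 41.5 and 55.1 CPM at 0.2 µM, with a median of 49.4, with no overlap between the doses. It rose (edgeR log2 2.44 ± 0.35 SE, adjusted p = 0.000536). Its course had a trough, since its level at 0.2 µM lay below that in DMSO. HSPH1, an HSP70 exchange factor, was instead higher at each step, at 38.6 CPM in DMSO, 111 CPM at 0.2 µM and 322 CPM at 0.4 µM (edgeR log2 1.77 ± 0.32 SE, adjusted p = 0.00192 between the doses). AHSA1, an activator of HSP90, had 81.2 CPM at 0.4 µM and 26.3 CPM at 0.2 µM (edgeR log2 1.79 ± 0.33 SE, adjusted p = 0.00206). HSF2, a second heat shock factor, had 148 CPM at 0.4 µM and 42.6 CPM at 0.2 µM (edgeR log2 1.85 ± 0.33 SE, adjusted p = 0.00196). HSP90AA1, the member with the most UMIs, was at 823 CPM at 0.4 µM and 469 CPM at 0.2 µM (adjusted p = 0.0539 from edgeR), and it passed the test with TMM factors, without the run 5 culture at 0.4 µM (edgeR log2 1.20) and without DMSO of run 4 (edgeR log2 1.02).

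The stress-inducible HSP70 genes and HSF1, named after their values were seen, did not share this step. HSPA1A had 74.7 CPM at 0.4 µM and 79.1 CPM at 0.2 µM, and 17.8 CPM in DMSO of run 5. HSPA1B had 66.5 CPM at 0.4 µM and 80.6 CPM at 0.2 µM, and 13.1 CPM in DMSO of run 5. Neither passed the test between the doses (adjusted p = 0.908 from edgeR for HSPA1A and adjusted p = 0.799 from edgeR for HSPA1B). These near-identical genes share reads, so the split between them is uncertain. HSF1, the main heat shock factor, was the 1 member that fell, with 34.4 CPM at 0.4 µM and 66.5 CPM at 0.2 µM (edgeR log2 -0.97 ± 0.32 SE, adjusted p = 0.0457, adjusted p = 0.173 with TMM factors). That call was lost without either culture at 0.4 µM (edgeR log2 -0.95 without run 6), and without DMSO of run 3, run 4 or run 6 (edgeR log2 -0.97 in each). In mitochondria, the chaperonin gene HSPD1 rose, with 654 CPM at 0.4 µM and 262 CPM at 0.2 µM (edgeR log2 1.30 ± 0.32 SE, adjusted p = 0.0105). Its partner HSPE1 rose, with 133 CPM at 0.4 µM and 33.1 CPM at 0.2 µM (edgeR log2 2.08 ± 0.30 SE, adjusted p = 0.000622). The mitochondrial HSP70 gene HSPA9 was at 149.9 CPM in DMSO, 436 CPM at 0.2 µM and 525 CPM at 0.4 µM and did not pass the test between the doses (adjusted p = 0.437 from edgeR), so its higher level was present at 0.2 µM already.

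Genes of the proteasome and of folding in the endoplasmic reticulum took a larger share of the UMIs at 0.4 µM than at 0.2 µM, with few members past 2-fold. For the folding genes this was a return to near the DMSO level, whereas the proteasome list was higher than DMSO at both doses. Of 29 proteasome genes 22 had a log2 ratio above 0 (median 0.34), and 5 were at least 2-fold higher and 0 lower, against 11.7% and 20.9% of all genes. In edgeR 5 of 31 rose and 1 fell. In cells thinned to 20000 UMIs, that is with as many UMIs drawn from each cell, proteasome genes took a median of 0.275% of a cell's UMIs at 0.4 µM and 0.161% at 0.2 µM, and 97.2% of the cells at 0.4 µM lay above the median at 0.2 µM. The proteasome median in DMSO of run 5 was 0.120%. PSMD14, the deubiquitinase of the lid, had 535 CPM at 0.4 µM and 133 CPM at 0.2 µM (edgeR log2 2.11 ± 0.36 SE, adjusted p = 0.00145). PSMA2, a subunit of the core, had 231 CPM at 0.4 µM and 68.8 CPM at 0.2 µM (edgeR log2 1.67 ± 0.35 SE, adjusted p = 0.00429). Of 19 genes for folding in the endoplasmic reticulum 4 were at least 2-fold higher and 1 lower (21.1% and 5.26%), with a median of 0.57, and 0.25 among members of at most 30 kb. They took a median of 0.372% of a thinned cell's UMIs at 0.4 µM and 0.273% at 0.2 µM, with 88.5% of the cells at 0.4 µM above the median at 0.2 µM. In DMSO of run 5 this median was 0.336%. The folding list summed to 3738 CPM in DMSO, 2854 CPM at 0.2 µM and 3812 CPM at 0.4 µM in run 5. Run 6 had 3866 CPM at 0.4 µM and 3476 CPM in DMSO. DNAJC3, an inhibitor of the eIF2α kinases, had 433 CPM at 0.4 µM and 121 CPM at 0.2 µM (edgeR log2 1.86 ± 0.30 SE, adjusted p = 0.00105), while HSPA5, which encodes BiP, was at 358 CPM at 0.4 µM and 375 CPM at 0.2 µM (adjusted p = 0.944 from edgeR).

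Genes of the ribosome and of its assembly were higher at 0.4 µM as a broad group. All 76 ribosomal protein genes that passed had a log2 ratio above 0 in run 5, with a median of 0.79 and a range of 0.06 to 2.17, and 25 were at least 2-fold higher, against 11.7% of all genes. In edgeR 33 of 78 rose and 0 fell (44 and 0 with TMM factors). Together these genes took 5092 CPM in DMSO, 6574 CPM at 0.2 µM and 11595 CPM at 0.4 µM in run 5, and 14663 CPM at 0.4 µM and 4908 CPM in DMSO in run 6. RPL39, whose start is shown above, had 41.0 CPM at 0.4 µM and 9.11 CPM at 0.2 µM (edgeR log2 2.55 ± 0.42 SE, adjusted p = 0.00117). RPS26, of the small subunit, had 80.8 CPM at 0.4 µM and 24.7 CPM at 0.2 µM (edgeR log2 2.03 ± 0.34 SE, adjusted p = 0.0014). RPS6, the member with the most UMIs, had 473 CPM at 0.4 µM and 258 CPM at 0.2 µM (adjusted p = 0.0527 from edgeR), and passed the test with TMM factors and without the run 5 culture at 0.4 µM (edgeR log2 1.29). Ribosomal protein genes, and likewise NPM1, HSPE1 and HSPD1, have processed pseudogenes, and how reads were split between them is not given in the sources used here.

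Ribosome assembly genes were mostly higher as well. Of 19 ribosome biogenesis genes, 8 were at least 2-fold higher and 1 at least 2-fold lower (median 0.62), against 11.7% and 20.9% of all genes. In edgeR of 25 tested members 10 rose and 2 fell, against 6.08% and 16.2% of all genes tested. NPM1 was at 71.5 CPM in DMSO, 134 CPM at 0.2 µM and 550.0 CPM at 0.4 µM in run 5, and run 6 had 439 CPM at 0.4 µM and 93.4 CPM in DMSO. Over the 8 sublibraries NPM1 lay between 525 and 586 CPM at 0.4 µM, with a median of 549, and between 119 and 160.2 CPM at 0.2 µM, with a median of 129.6, with no overlap. NOP56, a core protein of box C/D particles, had 199.8 CPM at 0.4 µM and 45.4 CPM at 0.2 µM (edgeR log2 2.92 ± 0.47 SE, adjusted p = 0.000996), and its partner NOP58 had 452 CPM at 0.4 µM and 120.3 CPM at 0.2 µM (edgeR log2 1.99 ± 0.34 SE, adjusted p = 0.00144). NCL, which encodes nucleolin, had 871 CPM at 0.4 µM and 283 CPM at 0.2 µM (edgeR log2 2.14 ± 0.44 SE, adjusted p = 0.00429). MYC, an activator of ribosome biogenesis, fell, with 22.4 CPM at 0.4 µM and 83.5 CPM at 0.2 µM (edgeR log2 -1.46 ± 0.48 SE, adjusted p = 0.0435). Its call was lost with TMM factors (adjusted p = 0.127 from edgeR) and without the run 5 culture at 0.4 µM (edgeR log2 -1.09). Of 10 small nucleolar RNA host genes, 5 were at least 2-fold higher and 0 at least 2-fold lower (against 11.7% and 20.9% of all genes), the median was 1.16, and in edgeR of 12 tested members 5 rose and 0 fell. ZFAS1 was at 116 CPM in DMSO, 125 CPM at 0.2 µM and 609 CPM at 0.4 µM (edgeR log2 2.41 ± 0.37 SE, adjusted p = 0.000792 between the doses), so the higher level was seen at 0.4 µM alone. GAS5, SNHG1 and SNHG15, other host genes, rose with edgeR log2 values of 2.13, 2.16 and 2.46.

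Several genes of the transcription machinery were high at 0.4 µM alone. POLR2A, the largest subunit of RNA polymerase II (chromosome 17 from 7484366 to 7514616), was at 169 CPM in DMSO, 123 CPM at 0.2 µM and 853 CPM at 0.4 µM in run 5, and run 6 had 1129 CPM at 0.4 µM and 123 CPM in DMSO. Across the sublibraries POLR2A lay between 704 and 981 CPM at 0.4 µM, with a median of 817, and between 107 and 164 CPM at 0.2 µM, with a median of 121, with no overlap. It rose (edgeR log2 3.00 ± 0.37 SE, adjusted p = 0.000303). POLR2B, the second largest subunit, had 320.5 CPM at 0.4 µM and 121 CPM at 0.2 µM (edgeR log2 1.19 ± 0.33 SE, adjusted p = 0.0202). GTF2B, the initiation factor TFIIB, had 215 CPM at 0.4 µM and 33.6 CPM at 0.2 µM (edgeR log2 2.29 ± 0.44 SE, adjusted p = 0.00274). The lists of polymerase subunits, Mediator and general factors were chosen after the values were seen. Of 8 polymerase subunits 2 were at least 2-fold higher and 0 lower, and of 8 general factors 3 were higher and 0 lower, small lists beside a background of 11.7% higher. Of 21 subunits of Mediator, the coactivator complex, 4 were at least 2-fold higher and 5 lower (19.0% and 23.8%), near the 11.7% and 20.9% of all genes. MED26, which joins Mediator to elongation factors, had 302 CPM at 0.4 µM and 35.5 CPM at 0.2 µM (edgeR log2 3.51 ± 0.44 SE, adjusted p = 0.000303). MED12, of the kinase module, had 14.0 CPM at 0.4 µM and 65.4 CPM at 0.2 µM (edgeR log2 -2.02 ± 0.49 SE, adjusted p = 0.0103), and MED24, of the tail, had 13.2 CPM at 0.4 µM and 59.6 CPM at 0.2 µM (edgeR log2 -2.11 ± 0.37 SE, adjusted p = 0.00171). Without the run 5 culture at 0.4 µM the calls of POLR2B and MED12 were lost (edgeR log2 0.93 and -1.82). H3-3A, a replication-independent histone H3 gene, had 204 CPM at 0.4 µM and 22.1 CPM at 0.2 µM (edgeR log2 3.50 ± 0.45 SE, adjusted p = 0.000357).

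Most nuclear genes of the respiratory chain had log2 ratios above 0, of which a smaller number passed 2-fold or the test, and mitochondrially encoded mRNAs did not pass the test. Of 29 complex I genes, 8 were at least 2-fold higher and 1 at least 2-fold lower (median 0.46), and of 36 genes for complexes II to V, 2 were at least 2-fold higher and 0 at least 2-fold lower (median 0.48). These are 27.6% of the complex I genes and 5.56% of the others higher, above and below the 11.7% of all genes. In edgeR 7 of 37 complex I genes rose and 2 fell (8 and 0 with TMM factors), and 2 of 38 genes for complexes II to V rose and 1 fell (7 and 0 with TMM factors), against 6.08% and 16.2% of all genes tested. NDUFS5, an accessory subunit of complex I, had 69.9 CPM at 0.4 µM and 28.1 CPM at 0.2 µM (edgeR log2 1.52 ± 0.34 SE, adjusted p = 0.00698), and NDUFB6, another, had 70.9 CPM at 0.4 µM and 30.3 CPM at 0.2 µM (edgeR log2 1.25 ± 0.32 SE, adjusted p = 0.013). NDUFS7, a subunit with an iron-sulfur cluster, fell, with 14.5 CPM at 0.4 µM and 36.5 CPM at 0.2 µM (edgeR log2 -1.35 ± 0.38 SE, adjusted p = 0.0205), a call that was lost with TMM factors and without either culture at 0.4 µM (edgeR log2 -1.38 without run 5 and -1.33 without run 6). The 12 mitochondrially encoded mRNAs that passed the filter had a median log2 ratio of -0.05 between the doses, against -1.66 between 0.2 µM and DMSO in run 5, so their lower level was present at 0.2 µM already. MT-CO1, a subunit of complex IV, was at 7677 CPM in DMSO, 6319 CPM at 0.2 µM and 5474 CPM at 0.4 µM. In edgeR 0 of 13 rose and 0 fell between the doses, also with TMM factors, and MT-ND6, which is encoded on the light strand, came nearest. It was at 98.7 CPM in DMSO, 17.5 CPM at 0.2 µM and 54.4 CPM at 0.4 µM in run 5, and run 6 had 24.3 CPM at 0.4 µM and 181 CPM in DMSO (adjusted p = 0.0938 from edgeR, passed without the run 6 culture at 0.4 µM with an edgeR log2 of 1.64). PPARGC1B, a coactivator of mitochondrial biogenesis, rose, with 52.7 CPM at 0.4 µM and 15.5 CPM at 0.2 µM (edgeR log2 1.49 ± 0.39 SE, adjusted p = 0.0158, lost without the run 5 culture at 0.4 µM with an edgeR log2 of 1.14).

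Clock genes as a list lay near the background in counts past 2-fold, with large differences in single genes. In summed level the list was higher at each step, at 1242 CPM in DMSO, 2605 CPM at 0.2 µM and 4251 CPM at 0.4 µM in run 5. Run 6 had 5642 CPM at 0.4 µM and 950 CPM in DMSO. In thinned cells of run 5 the median share was 0.369% at 0.4 µM and 0.214% at 0.2 µM. Of 16 members, 3 were at least 2-fold higher and 3 at least 2-fold lower (18.8% each), against 11.7% and 20.9% of all genes, and in edgeR of 19 tested members 3 rose and 5 fell. NR1D1, which encodes the repressor REV-ERBα, was at 34.9 CPM in DMSO, 264 CPM at 0.2 µM and 862 CPM at 0.4 µM in run 5, and run 6 had 1735 CPM at 0.4 µM and 15.1 CPM in DMSO. Across the sublibraries NR1D1 lay between 679 and 983 CPM at 0.4 µM, with a median of 886, and between 200.0 and 378 CPM at 0.2 µM, with a median of 254, with no overlap (edgeR log2 2.30 ± 0.53 SE, adjusted p = 0.00816). CRY1, another repressor, rose, with 369 CPM at 0.4 µM and 91.0 CPM at 0.2 µM (edgeR log2 2.48 ± 0.43 SE, adjusted p = 0.00159). PER1 was at 328 CPM in DMSO, 730.0 CPM at 0.2 µM and 1579.7 CPM at 0.4 µM (adjusted p = 0.0622 from edgeR between the doses), and passed the test with TMM factors and without DMSO of run 5 or of run 6 (edgeR log2 1.24 in both cases). PER2 and PER3, repressors of the same family, had peaks at 0.2 µM instead. PER3 was at 80.3 CPM in DMSO, 201 CPM at 0.2 µM and 42.3 CPM at 0.4 µM (edgeR log2 -2.44 ± 0.29 SE, adjusted p = 0.000254). PER2 was at 19.9 CPM in DMSO, 85.6 CPM at 0.2 µM and 25.7 CPM at 0.4 µM (edgeR log2 -2.08 ± 0.36 SE, adjusted p = 0.00164).

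In the BCL2 family, which governs the mitochondrial path of cell death, single genes moved in either direction. Of 7 members that passed the filter, 3 were at least 2-fold higher and 1 lower, against 11.7% and 20.9% of all genes, the other 3 lay within 2-fold, and the median was -0.21. BCL2L11, which encodes BIM, was at 48.2 CPM in DMSO, 82.3 CPM at 0.2 µM and 411 CPM at 0.4 µM (edgeR log2 2.73 ± 0.40 SE, adjusted p = 0.000652 between the doses). BBC3, which encodes PUMA, had 74.4 CPM at 0.4 µM and 36.4 CPM at 0.2 µM (edgeR log2 1.33 ± 0.36 SE, adjusted p = 0.019), a call that was lost without the run 6 culture at 0.4 µM (edgeR log2 1.03). BCL2, a survival gene, had 10.0 CPM at 0.4 µM and 54.9 CPM at 0.2 µM (edgeR log2 -2.68 ± 0.36 SE, adjusted p = 0.000403). BNIP3, the other member past 2-fold, had 135 CPM at 0.4 µM and 64.4 CPM at 0.2 µM in run 5 but 71.1 CPM at 0.4 µM in run 6 (adjusted p = 0.23 from edgeR). The p53 list held 4 of 22 members at least 2-fold higher (18.2%, near the 11.7% of all genes) and 0 lower. Its median was 0.47, and 0.15 among members of at most 30 kb. PCNA, the sliding clamp of DNA replication, had 105 CPM at 0.4 µM and 22.2 CPM at 0.2 µM (edgeR log2 2.93 ± 0.46 SE, adjusted p = 0.000903). PPM1D, a phosphatase that switches off p53 signalling, had 157 CPM at 0.4 µM and 60.8 CPM at 0.2 µM (edgeR log2 1.47 ± 0.36 SE, adjusted p = 0.0113). MDM2, the p53 ubiquitin ligase, had 1368 CPM at 0.4 µM and 763 CPM at 0.2 µM (adjusted p = 0.212 from edgeR), so its higher value did not stand apart from the spread between cultures.

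Of 8 chemokine and NF-κB feedback genes, 4 were at least 2-fold higher and 0 lower, against 11.7% and 20.9% of all genes. The list summed to 1375 CPM in DMSO, 615 CPM at 0.2 µM and 1372 CPM at 0.4 µM in run 5. In summed level the second step was thus a return to that of DMSO. Run 6 had 2162 CPM at 0.4 µM and 1655 CPM in DMSO. TNFAIP3, which encodes the inhibitor A20, had 189.6 CPM at 0.4 µM and 60.9 CPM at 0.2 µM (edgeR log2 2.31 ± 0.46 SE, adjusted p = 0.00336). NFKB1, a subunit of NF-κB, had 372 CPM at 0.4 µM and 108 CPM at 0.2 µM (edgeR log2 1.64 ± 0.37 SE, adjusted p = 0.00674). Of 11 immediate early genes 1 was at least 2-fold higher and 4 lower (9.09% and 36.4%). JUN, of the AP-1 factors, rose, with 429 CPM at 0.4 µM and 172 CPM at 0.2 µM (edgeR log2 1.37 ± 0.33 SE, adjusted p = 0.00921). ZFP36, which destabilizes AU-rich mRNAs, fell, with 19.5 CPM at 0.4 µM and 85.1 CPM at 0.2 µM (edgeR log2 -1.85 ± 0.45 SE, adjusted p = 0.0109), a call that was lost without the run 5 culture at 0.4 µM (edgeR log2 -1.59). EGR1, a zinc finger factor, had 18.9 CPM at 0.4 µM and 58.6 CPM at 0.2 µM (adjusted p = 0.0557 from edgeR), and passed the test without DMSO of run 3 or of run 5 (edgeR log2 -1.39 in both cases).

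Some genes of autophagy and the lysosome peaked at 0.2 µM. In counts past 2-fold the list lay near the background, but its summed level was lower in both cultures at 0.4 µM than at 0.2 µM. The list summed to 2629 CPM in DMSO, 3805 CPM at 0.2 µM and 2896 CPM at 0.4 µM in run 5. Run 6 had 2919 CPM at 0.4 µM and 2161 CPM in DMSO. The median share of a thinned cell's UMIs was 0.282% at 0.4 µM and 0.376% at 0.2 µM in run 5. Of 26 members, 7 were at least 2-fold lower and 1 higher (median -0.52, and -0.07 among members of at most 30 kb), against 20.9% of all genes lower, and in edgeR of 27 tested members 1 rose and 8 fell (2 and 4 with TMM factors). TFEB, the main activator of lysosomal genes, was at 16.6 CPM in DMSO, 43.2 CPM at 0.2 µM and 12.1 CPM at 0.4 µM (edgeR log2 -1.79 ± 0.38 SE, adjusted p = 0.00467 between the doses). FLCN, which controls TFEB through the Rag GTPases, was at 38.2 CPM in DMSO, 223 CPM at 0.2 µM and 61.5 CPM at 0.4 µM (edgeR log2 -1.85 ± 0.30 SE, adjusted p = 0.00109). Both returned toward the DMSO level at 0.4 µM. NEU1, a lysosomal sialidase, was at 47.2 CPM in DMSO, 119 CPM at 0.2 µM and 33.9 CPM at 0.4 µM in run 5 and at 66.7 CPM at 0.4 µM in run 6 (adjusted p = 0.0566 from edgeR), and passed the test without the run 6 culture (edgeR log2 -1.81) and without DMSO of run 3 or of run 5. SQSTM1, the autophagy receptor p62, fell, with 266 CPM at 0.4 µM and 464 CPM at 0.2 µM (edgeR log2 -0.93 ± 0.29 SE, adjusted p = 0.0383). Its call was lost with TMM factors (adjusted p = 0.132 from edgeR), without the run 6 culture at 0.4 µM (edgeR log2 -0.81) and without DMSO of run 3 or of run 6.

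Long noncoding RNAs took a smaller share of the UMIs at the higher dose, 5.99% at 0.4 µM and 9.32% at 0.2 µM, against 12.8% in DMSO of run 5. NEAT1, the nuclear RNA that builds paraspeckles (chromosome 11 from 65422774 to 65445540), was at 6855 CPM in DMSO, 15109 CPM at 0.2 µM and 2523 CPM at 0.4 µM in run 5, and run 6 had 1408 CPM at 0.4 µM and 5139 CPM in DMSO (edgeR log2 -2.94 ± 0.38 SE, adjusted p = 0.000369 between the doses). It took 1.51% of all UMIs at 0.2 µM and lay below DMSO at 0.4 µM in both runs. MALAT1, the noncoding RNA with the most UMIs, had 17036 CPM at 0.4 µM and 20723 CPM at 0.2 µM (adjusted p = 0.738 from edgeR). FTX, a noncoding gene of 353140 bases, fell, with 60.3 CPM at 0.4 µM and 222 CPM at 0.2 µM (edgeR log2 -2.05 ± 0.30 SE, adjusted p = 0.000633).

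Plasma protein genes and some liver enzymes had higher values at 0.4 µM than at 0.2 µM in run 5, and among kept cells the plasma protein list did not in the second culture at 0.4 µM. Of 27 plasma protein genes, 26 had a log2 ratio above 0 and 5 were at least 2-fold higher and 0 lower at 0.4 µM than at 0.2 µM in run 5 (median 0.71), against 11.7% and 20.9% of all genes, after a median of -1.19 between 0.2 µM and DMSO. The run 6 culture at 0.4 µM lay at a median of -0.48 against the same culture at 0.2 µM, and at -2.06 against DMSO of its own run. In cells of 15 to 20% mitochondrial UMIs the list summed to 13307 CPM at 0.4 µM in run 6 and 15037 CPM at 0.2 µM. Among cells above 20%, left out here, these sums were 20104 CPM and 14128 CPM, so the order depended on the limit. In edgeR 0 of 35 rose and 0 fell (3 and 0 with TMM factors). ALB, which encodes albumin (chromosome 4 from 73397114 to 73421482), was at 8107 CPM in DMSO, 5457 CPM at 0.2 µM and 11458 CPM at 0.4 µM in run 5, and run 6 had 5378 CPM at 0.4 µM and 16059 CPM in DMSO. Over the 8 sublibraries ALB lay between 11033 and 12030.0 CPM at 0.4 µM, with a median of 11450.0, and between 4434 and 6084 CPM at 0.2 µM, with a median of 5507. The run 5 step in ALB was wider than the spread over sublibraries, but the cultures at 0.4 µM differed as much from each other (adjusted p = 0.497 from edgeR). ADH1B, an alcohol dehydrogenase, was at 261 CPM in DMSO, 17.5 CPM at 0.2 µM and 159.8 CPM at 0.4 µM in run 5, and run 6 had 23.5 CPM at 0.4 µM and 330.3 CPM in DMSO (adjusted p = 0.0575 from edgeR, edgeR log2 3.19 and passed without the run 6 culture at 0.4 µM, also passed without DMSO of run 3 or of run 6). UGT2B4, which conjugates steroids and bile acids, was at 128 CPM in DMSO, 4.53 CPM at 0.2 µM and 39.4 CPM at 0.4 µM, and run 6 had 1.82 CPM at 0.4 µM and 149 CPM in DMSO (passed without the run 6 culture at 0.4 µM, edgeR log2 3.12). CPS1, the first enzyme of the urea cycle, was at 241 CPM in DMSO, 28.7 CPM at 0.2 µM and 86.8 CPM at 0.4 µM, and run 6 had 10.5 CPM at 0.4 µM and 322 CPM in DMSO. CPS1 did not pass with both cultures at 0.4 µM, passed without run 6 (edgeR log2 1.60) and had the opposite sign without run 5 (edgeR log2 -1.45).

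Of 9 drug metabolism genes, 4 were at least 2-fold higher and 0 lower in run 5 (median 0.72), against 11.7% and 20.9% of all genes, while the median of the run 6 culture against the culture at 0.2 µM was -0.91. In summed level the list showed little difference within run 5, with 1465 CPM at 0.4 µM and 1376 CPM at 0.2 µM, and medians of 0.115% of a thinned cell's UMIs at 0.4 µM and 0.114% at 0.2 µM. Genes of bile acid synthesis and transport likewise had medians of 0.0250% at 0.4 µM and 0.0251% at 0.2 µM. SULT2A1, a sulfotransferase of steroids, was at 98.9 CPM in DMSO, 10.1 CPM at 0.2 µM and 72.5 CPM at 0.4 µM in run 5, and run 6 had 18.8 CPM at 0.4 µM and 112 CPM in DMSO. It rose with both cultures (edgeR log2 2.20 ± 0.63 SE, adjusted p = 0.0232) but not without run 5 (edgeR log2 0.89). GSTA1, a glutathione transferase whose reads may be shared with its near copy GSTA2, was at 222 CPM in DMSO, 64.9 CPM at 0.2 µM and 239.9 CPM at 0.4 µM in run 5, and run 6 had 151 CPM at 0.4 µM and 235 CPM in DMSO (edgeR log2 1.59 ± 0.46 SE, adjusted p = 0.0257), so both cultures at 0.4 µM stood above the one at 0.2 µM. The call was lost without run 5 (edgeR log2 1.22), and among run 5 cells of at most 10% mitochondrial UMIs (47 cells at 0.4 µM and 9 cells at 0.2 µM) the log2 ratio of GSTA1 was -0.22. CYP3A5, a cytochrome P450 and the member with the most UMIs, was lower at each step, at 1788 CPM in DMSO, 754 CPM at 0.2 µM and 379 CPM at 0.4 µM, and run 6 had 124 CPM at 0.4 µM and 1971 CPM in DMSO. It fell between the doses (edgeR log2 -1.58 ± 0.46 SE, adjusted p = 0.0248), but not with TMM factors (adjusted p = 0.0703 from edgeR) or without the run 6 culture (edgeR log2 -0.99). The 8 hepatocyte markers summed to 16686 CPM in DMSO, 10376 CPM at 0.2 µM and 17718 CPM at 0.4 µM in run 5, and to 9142 CPM at 0.4 µM and 25128 CPM in DMSO in run 6. The part of the cell mixture in the liver genes was not tested. Of 5 urea cycle genes 1 was at least 2-fold higher and 2 lower (median -0.51). SLC25A13, the mitochondrial aspartate carrier, was lower in both cultures at 0.4 µM than in the run 5 culture at 0.2 µM. It had 69.6 CPM at 0.4 µM and 249 CPM at 0.2 µM in run 5 and 30.9 CPM at 0.4 µM in run 6 (edgeR log2 -2.29 ± 0.38 SE, adjusted p = 0.00124). ASS1, which makes argininosuccinate, had 111 CPM at 0.4 µM and 258 CPM at 0.2 µM in run 5 and 70.7 CPM at 0.4 µM in run 6 (edgeR log2 -1.50 ± 0.34 SE, adjusted p = 0.00768).

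Lipid and glucose genes moved singly. SREBF2, the activator of cholesterol synthesis, was at 223 CPM in DMSO, 363 CPM at 0.2 µM and 71.1 CPM at 0.4 µM (edgeR log2 -2.34 ± 0.28 SE, adjusted p = 0.000254 between the doses). Of 20 genes of cholesterol synthesis 4 were at least 2-fold higher and 3 lower (20.0% and 15.0%, against 11.7% and 20.9% of all genes). IDI1, an isomerase of the pathway, had a trough, at 393 CPM in DMSO, 95.4 CPM at 0.2 µM and 337 CPM at 0.4 µM (edgeR log2 1.49 ± 0.35 SE, adjusted p = 0.00953). Of 13 genes of fatty acid synthesis 3 were at least 2-fold higher and 3 lower (23.1% each). ACACB, an acetyl-CoA carboxylase, fell, with 30.5 CPM at 0.4 µM and 89.3 CPM at 0.2 µM (edgeR log2 -1.67 ± 0.30 SE, adjusted p = 0.00192). MLXIPL, which encodes the carbohydrate sensor ChREBP, fell, with 185 CPM at 0.4 µM and 539 CPM at 0.2 µM (edgeR log2 -1.64 ± 0.43 SE, adjusted p = 0.0155), but not without the run 6 culture (edgeR log2 -1.54). GPAM, the first enzyme of triglyceride synthesis, rose, with 221 CPM at 0.4 µM and 78.3 CPM at 0.2 µM (edgeR log2 1.27 ± 0.34 SE, adjusted p = 0.0173), but not without the run 5 culture at 0.4 µM (edgeR log2 1.00). The level of GPAM at 0.2 µM also lay at least 2-fold below that in DMSO of run 5.

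Coat proteins of lipid droplets were lower. PLIN2 had 74.5 CPM at 0.4 µM and 145 CPM at 0.2 µM (edgeR log2 -0.99 ± 0.27 SE, adjusted p = 0.0188), with an adjusted p of 0.0891 from edgeR under TMM factors. PLIN4 had 9.52 CPM at 0.4 µM and 41.7 CPM at 0.2 µM (edgeR log2 -2.14 ± 0.45 SE, adjusted p = 0.00477). PDK4, the kinase that closes pyruvate dehydrogenase, was lower in run 5, with 131 CPM at 0.4 µM and 295 CPM at 0.2 µM, but stood at 395 CPM at 0.4 µM in run 6 (adjusted p = 0.826 from edgeR, passed without run 6 with an edgeR log2 of -1.17). Of 8 gluconeogenesis genes 2 were at least 2-fold higher and 1, PCK2, lower (25.0% and 12.5%, against 11.7% and 20.9% of all genes). In edgeR 3 of 15 tested members rose and 1 fell. IRS2 and FOXO1, regulators of the pathway, were among those that rose. IRS2, an adaptor of the insulin receptor, was at 101 CPM in DMSO, 360.2 CPM at 0.2 µM and 1342 CPM at 0.4 µM (edgeR log2 2.29 ± 0.40 SE, adjusted p = 0.00158). FOXO1, the transcription factor that insulin restrains, had 857 CPM at 0.4 µM and 256 CPM at 0.2 µM (edgeR log2 1.76 ± 0.34 SE, adjusted p = 0.00285).

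Targets of hypoxia and of NRF2 also moved singly. Of 17 hypoxia genes 3 were at least 2-fold higher and 3 lower (17.6% each, against 11.7% and 20.9% of all genes). KDM3A, a histone demethylase, was at 44.5 CPM in DMSO, 144 CPM at 0.2 µM and 438 CPM at 0.4 µM (edgeR log2 1.80 ± 0.36 SE, adjusted p = 0.00342). EGLN1, the oxygen sensor PHD2, had 174 CPM at 0.4 µM and 58.4 CPM at 0.2 µM (edgeR log2 1.59 ± 0.32 SE, adjusted p = 0.00373). Against these rises, SLC2A1, the glucose transporter GLUT1, fell, with 25.4 CPM at 0.4 µM and 81.8 CPM at 0.2 µM (edgeR log2 -1.48 ± 0.33 SE, adjusted p = 0.00671), and P4HA2, a collagen prolyl hydroxylase, fell, with 19.1 CPM at 0.4 µM and 65.0 CPM at 0.2 µM (edgeR log2 -1.78 ± 0.31 SE, adjusted p = 0.00158). HIF1A, the regulated subunit of the hypoxia factor, had 470.1 CPM at 0.4 µM and 258 CPM at 0.2 µM (adjusted p = 0.0958 from edgeR, passed with TMM factors). Of 21 NRF2 targets 3 were at least 2-fold higher and 0 lower (14.3% higher, near the background). The NRF2 list summed to 5450 CPM in DMSO, 4254 CPM at 0.2 µM and 4915 CPM at 0.4 µM in run 5. AKR1B10, an aldo-keto reductase, had 187 CPM at 0.4 µM and 75.2 CPM at 0.2 µM (edgeR log2 1.34 ± 0.31 SE, adjusted p = 0.00763). Its course had a trough, since its level at 0.2 µM lay at least 2-fold below that in DMSO of run 5. HMOX1, which breaks down heme, had 32.2 CPM at 0.4 µM and 12.8 CPM at 0.2 µM in run 5 and 161 CPM at 0.4 µM in run 6 (edgeR log2 2.90 ± 0.73 SE, adjusted p = 0.0125), and its call was lost without run 6 (edgeR log2 1.33).

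The largest single differences were of genes outside most lists. Among protein-coding genes with 1 direction in all 8 sublibraries, FAM222A had the largest log2 ratio, with 138 CPM at 0.4 µM and 5.21 CPM at 0.2 µM (log2 4.73, interval 4.60 to 4.86). In DMSO of run 5 it stood at 2.87 CPM, and run 6 had 194 CPM at 0.4 µM and 2.28 CPM in DMSO, so both cultures at 0.4 µM were above every other. SMAD6, an inhibitor of BMP signalling, had 80.5 CPM at 0.4 µM and 3.40 CPM at 0.2 µM, against 9.55 CPM in DMSO of run 5 and 27.0 CPM at 0.4 µM in run 6. Its relative SMAD7, an inhibitor of TGF-β signalling, had 299.5 CPM at 0.4 µM and 69.6 CPM at 0.2 µM. CADM1, a cell adhesion molecule, had 1001 CPM at 0.4 µM and 113 CPM at 0.2 µM. TLE4, a corepressor, had 768 CPM at 0.4 µM and 87.4 CPM at 0.2 µM. All of these rose, with edgeR log2 values of 4.99 for FAM222A, 4.00 for SMAD6, 2.01 for SMAD7, 3.00 for CADM1 and 3.41 for TLE4. AMD1, which makes the aminopropyl donor of polyamine synthesis, had 675 CPM at 0.4 µM and 78.9 CPM at 0.2 µM (edgeR log2 3.33 ± 0.36 SE, adjusted p = 0.000143). HES1, a repressor downstream of Notch, had 559 CPM at 0.4 µM and 72.8 CPM at 0.2 µM (edgeR log2 3.33 ± 0.39 SE, adjusted p = 0.000227).

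At the other end, KCP, a secreted regulator of BMP signalling, was at 2.07 CPM in DMSO, 57.4 CPM at 0.2 µM and 1.37 CPM at 0.4 µM in run 5 (log2 -5.39 between the doses, interval -5.66 to -5.14), and run 6 had 1.82 CPM at 0.4 µM and 1.04 CPM in DMSO. Its high level was thus that of the culture at 0.2 µM alone. PRDM16, a transcriptional regulator of brown fat (chromosome 1 from 3069168 to 3438621), was at 37.5 CPM in DMSO, 125 CPM at 0.2 µM and 3.26 CPM at 0.4 µM (edgeR log2 -5.19 ± 0.37 SE, adjusted p = 2.3e-05). AKNA, an AT-hook protein, was at 9.94 CPM in DMSO, 69.8 CPM at 0.2 µM and 3.82 CPM at 0.4 µM (edgeR log2 -4.40 ± 0.48 SE, adjusted p = 0.000146). STX1A, a syntaxin of vesicle fusion, also had a peak, at 13.3 CPM in DMSO, 91.8 CPM at 0.2 µM and 15.6 CPM at 0.4 µM. FGF13, of the fibroblast growth factor homologous factors, had 8.44 CPM at 0.4 µM and 143 CPM at 0.2 µM (edgeR log2 -4.26 ± 0.30 SE, adjusted p = 2.3e-05). RCAN2, an inhibitor of calcineurin, had 7.15 CPM at 0.4 µM and 99.1 CPM at 0.2 µM (edgeR log2 -3.88 ± 0.33 SE, adjusted p = 4.88e-05). ZHX2, a transcriptional repressor, had 11.6 CPM at 0.4 µM and 138 CPM at 0.2 µM (edgeR log2 -3.90 ± 0.36 SE, adjusted p = 7.48e-05). HK1, which encodes hexokinase 1, was at 3.74 CPM in DMSO, 53.7 CPM at 0.2 µM and 4.45 CPM at 0.4 µM, and run 6 had 1.26 CPM at 0.4 µM and 3.53 CPM in DMSO. Of its UMIs in run 5, 10 cells held 51.3% at 0.4 µM and 15.7% at 0.2 µM. For PRDM16 the 10 cells with the most of its UMIs held 23.5% at 0.4 µM and 11.2% at 0.2 µM.

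Longer genes were more often lower at 0.4 µM. The median log2 ratio was 0.27 for 232 genes under 5 kb, 0.02 for 1659 genes of 10 to 30 kb, -0.26 for 1860 genes of 100 to 300 kb and -0.64 for 571 genes over 300 kb. At least 2-fold lower were 10.3% of the genes under 5 kb and 39.2% of those over 300 kb. At least 2-fold higher were 12.5% of the genes under 5 kb and 6.65% of those over 300 kb. PRDM16 spans 369454 bases and TRIB3 34725 bases. Among genes of at most 30 kb alone, an alternative added after the data were seen, 321 were at least 2-fold higher and 367 lower, and the median of all genes was 0.07. The integrated stress response then had a median of -0.75, cytosolic heat shock 0.62 and small nucleolar RNA host genes 1.64.

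**Figure D3:**
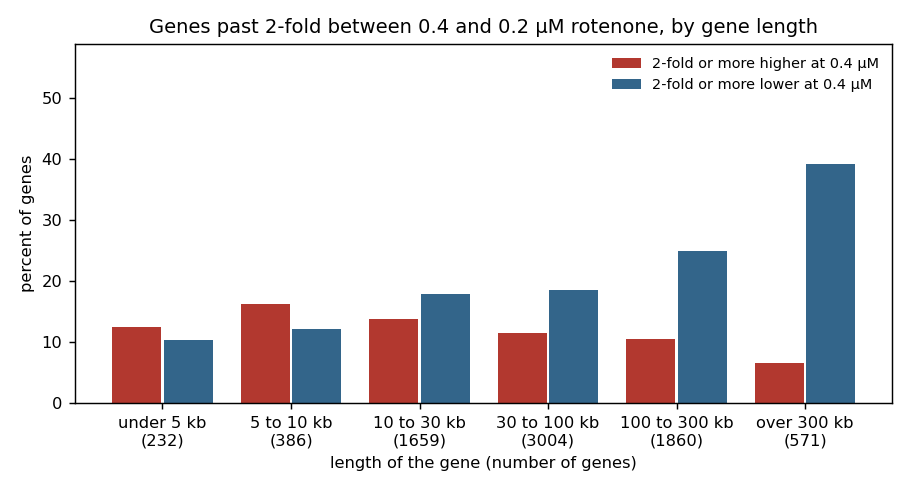
Percent of genes (vertical axis) at least 2-fold higher (left bars) or lower (right bars) at 0.4 µM than at 0.2 µM rotenone in run 5, by the length of the gene with the number of genes in each class (horizontal axis). The share of lower genes is 10.3% under 5 kb and 39.2% over 300 kb.

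Nearly all cells shared the difference in heat shock and ribosomal protein genes, while cells of the doses overlapped for the integrated stress response. With each cell thinned to 20000 UMIs (390 cells at 0.4 µM and 441 at 0.2 µM, 23 and 8 shallower cells left out), cytosolic heat shock genes took a median of 0.410% of a cell's UMIs at 0.4 µM (quartiles 0.337% to 0.517%) and 0.184% at 0.2 µM (quartiles 0.141% to 0.274%), or 0.411% and 0.187% without thinning. Every thinned cell at 0.4 µM lay above the median at 0.2 µM. In DMSO of run 5 the median was 0.189%, so the typical cell at 0.2 µM was near DMSO although the summed level was above it (2542 CPM at 0.2 µM and 1944 CPM in DMSO). Ribosomal protein genes took 1.15% at 0.4 µM and 0.625% at 0.2 µM (1.16% and 0.620% without thinning), with 99.2% of the cells at 0.4 µM above the median at 0.2 µM. For the integrated stress response the medians were 0.204% at 0.4 µM (quartiles 0.144% to 0.312%) and 0.298% at 0.2 µM (quartiles 0.239% to 0.347%), or 0.199% and 0.294% without thinning, with 27.7% of the cells at 0.4 µM above the median at 0.2 µM. The run 6 culture at 0.4 µM, at 0.290%, was near the culture at 0.2 µM in this summed measure. For genes of autophagy and the lysosome 8.21% of the cells at 0.4 µM lay above the median at 0.2 µM.

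**Figure D4:**
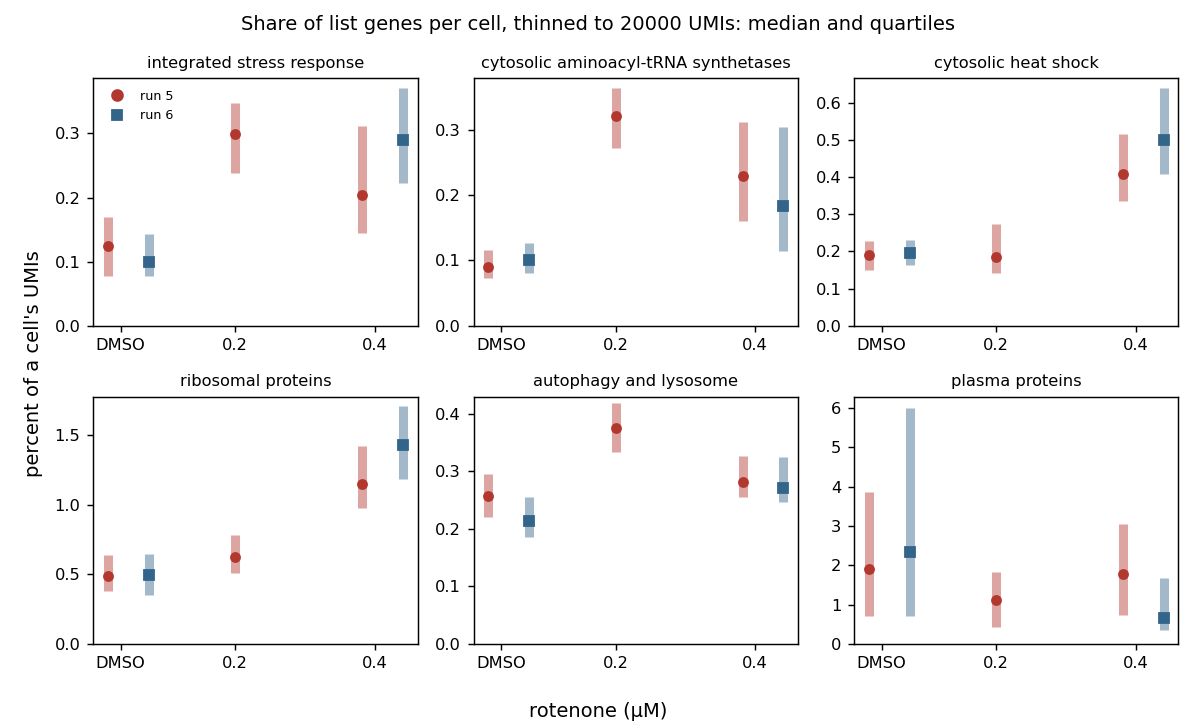
Percent of a cell's UMIs in 6 gene lists (vertical axes) by rotenone dose in µM (horizontal axes), for cells thinned to 20000 UMIs, with medians as points and the range between quartiles as bars, run 5 in circles and run 6 in squares. The heat shock medians in run 5 are 0.189% in DMSO, 0.184% at 0.2 µM and 0.410% at 0.4 µM, and the plasma protein medians at 0.4 µM are 1.78% in run 5 and 0.650% in run 6.

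The differences were present on either side of the limit on mitochondrial UMIs. Just inside it, among 169 cells at 0.4 µM and 308 cells at 0.2 µM with 15 to 20% mitochondrial UMIs, TRIB3 was at 11.98 CPM at 0.4 µM and 178 CPM at 0.2 µM. Just outside it, among 80 cells at 0.4 µM and 304 cells at 0.2 µM above 20%, TRIB3 was at 5.64 CPM at 0.4 µM and 151 CPM at 0.2 µM. The median log2 ratio of the integrated stress response was -0.98 in cells of 10 to 15%, -0.89 in cells of 15 to 20% and -1.07 above 20%. That of cytosolic heat shock was 0.84, 0.78 and 0.65 in the same classes. At most 10% was found in 47 cells at 0.4 µM and 9 cells at 0.2 µM. In these few cells the log2 ratio was -3.11 for TRIB3, 3.05 for POLR2A and 1.86 for DNAJA1. ASNS was there at 183 CPM at 0.4 µM and 182 CPM at 0.2 µM, and NR1D1 at 638 CPM at 0.4 µM and 639.9 CPM at 0.2 µM, so these genes showed no step in the cells of lowest mitochondrial share.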

How the data were processed

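Per the file headers and the study's methods, the deposited matrix holds UMI counts per gene and cell that the authors made with the pipeline of Parse Biosciences: reads were aligned to GRCh38 (the build in the submitters' processing notes) and identical UMIs of a gene in a cell were collapsed. The sources used here name no aligner, annotation or strand setting, so reads of overlapping genes cannot be told apart. Counts of kept cells were summed per culture and divided by the culture's total UMIs (CPM). Intervals of ratios are exact binomial intervals (SciPy 1.17.1) and cover counting error only. Doublets were not called. The matrix still held cells above 20% mitochondrial UMIs, which were left out here.

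edgeR 4.0.16 (R 4.3.3) was fitted to the summed counts of 7 cultures, on total UMIs, with its quasi-likelihood test and Benjamini-Hochberg adjustment over 23277 genes. The model has 4 residual degrees of freedom, and the run 5 culture at 0.4 µM also enters it, so the test is not independent of the run 5 ratios. On simulated counts for these genes it recovered 2% of 50 genes changed 1.5-fold and 10% of 50 changed 2-fold. It recovered 72% of 50 changed 4-fold and 98% of 50 changed 8-fold, with 17 false calls among the unchanged genes. The simulated culture at 0.2 µM had the same spread as the others, so whether the real one varies like them was not checked.

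Named genes are stress genes the study names, most of them for rotenone, the 10 largest rises and falls, up to 4 members per list past 2-fold with its member of most UMIs, and 5 genes per class that turns. SQSTM1 was reported by the study for brefeldin A and not in its account of rotenone. Members and lists were chosen with earlier results of these data known. The lists of RNA polymerase II, Mediator and general factors, the search for pyrimidine runs and the comparisons by gene length were added after the values were seen. Gene positions and lengths came from GENCODE 44 on GRCh38, which held 62625 of 62703 gene identifiers, and promoter sequences from RefSeq. Alternatives were other scalings (TMM, DESeq2 1.42.0), filters, folds and mitochondrial limits, each culture or sublibrary left out, the run as a block, and the run 6 culture.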

Additional observations from a re-analysis of the deposited data

Results flagged for a closer look

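The log2 ratio of 0.4 µM over 0.2 µM in run 5 was looked at in the 8 sublibraries for each of 161 genes. In 12 of them the highest or lowest sublibrary lay far from the rest by Dixon's test at the 95% level, and chance marks about 1 in 20 groups. ALB had a highest value of 1.42, and ATP5MC3, a subunit of the mitochondrial ATP synthase, a lowest value of 0.96. DOCK6 had a highest value of -3.09, KCP of -4.33, MGAM of -2.84 and MALAT1 of -0.144. IRS2 had a lowest value of 1.27, MED26 of 2.89 and PCNA of 1.56. SREBF2 had a lowest value of -2.55, MRPL48 of -1.97 and SYVN1, a ubiquitin ligase of the endoplasmic reticulum, of -1.42. In all 12 the other sublibraries had the same direction as the one named.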

How the results depend on the processing

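Of the 901 genes at least 2-fold higher and 1613 at least 2-fold lower, TMM factors gave 1624 higher (1099 lower) and DESeq2 size factors 1475 higher (1148 lower). A mean of at least 50 CPM left 706 lower and a mean of at least 5 CPM gave 2874 lower. A limit of 1.5-fold gave 1777 higher and 2573 lower, and one of 3-fold 281 higher and 722 lower. Among genes of at most 30 kb, an alternative added after the data were seen, 321 were higher and 367 lower, by construction from fewer genes. Leaving out each sublibrary gave 883 to 933 higher and 1593 to 1638 lower. edgeR called 2187 higher and 2286 lower with TMM factors, and DESeq2 2510 higher and 2341 lower. With the run as a block in runs 5 and 6 alone, in place of a replicate block, edgeR called 816 higher and 2247 lower with 1 residual degree of freedom. No paired analysis was possible because the single culture at 0.2 µM has no partner at 0.2 µM in run 6. Leaving out each culture gave 1140 to 1532 calls higher and 2503 to 4113 lower, the lowest of both without the run 6 culture at 0.4 µM.

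Of the dose-course classes, TMM factors gave 377 genes higher at both steps and 99 lower at both. With 1.5-fold the classes held 1004 (higher then lower), 464 (lower then higher), 642 (higher at both) and 589 (lower at both). With the run 6 culture at 0.4 µM, 110 were lower then higher and 372 lower at both.

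The drug metabolism median turned to -0.12 at a mean of at least 50 CPM, to -0.23 in cells of at most 10% mitochondrial UMIs and to -0.91 with the run 6 culture. The plasma protein median turned to -0.45 with the run 6 culture when members were filtered on that culture and the one at 0.2 µM, and was -0.48 with the members that passed in run 5. The urea cycle median was 0.092 at a mean of at least 5 CPM and 0.066 among genes of at most 30 kb, where that of amino acid transporters was 0.032. In cells of at most 10% mitochondrial UMIs the log2 ratio was 0.0037 for ASNS, -0.22 for GSTA1, -0.24 for GSTA2, -0.0047 for NR1D1 and -0.073 for SMAD7. With the run 6 culture it was -0.021 for ALB, -1.32 for UGT2B4, -1.45 for CPS1 and 0.42 for PDK4. The edgeR log2 of CPS1 ran from -1.45 to 1.60 when each culture was left out, with the lowest value without the run 5 culture at 0.4 µM. For these values the cause was not tested. Of the alternative values of a gene's log2 ratio, 2537 moved by less than the spread over sublibraries and 508 by more. The other 9, given above, changed sign for genes at least 2-fold apart in the main ratio. Sign changes of smaller ratios were not counted apart, and GDF15 and PPP1R15A, for example, changed sign with the run 6 culture. With 1 culture at 0.2 µM, a culture effect at that dose and the dose itself cannot be told apart.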

Other observations

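Most mitochondrial ribosomal protein genes stayed within 2-fold between the doses. Among the 35 above the CPM minimum, 2 lay past 2-fold upward and 1 downward (5.71% and 2.86%, against 11.7% and 20.9% of all genes), the median log2 ratio was 0.43, and in edgeR of 75 tested members 4 rose and 1 fell (9 and 1 with TMM factors). MRPS35, of the small subunit, rose, with 87.3 CPM at 0.4 µM and 33.2 CPM at 0.2 µM (edgeR log2 1.32 ± 0.35 SE, adjusted p = 0.0161), and MRPL48, of the large subunit, fell, with 16.5 CPM at 0.4 µM and 49.0 CPM at 0.2 µM (edgeR log2 -1.62 ± 0.31 SE, adjusted p = 0.00251).

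Of 12 glycolysis genes 2 were at least 2-fold higher and 2 lower (16.7% each), near the 11.7% and 20.9% of all genes. ENO1, an enolase, was at 324 CPM in DMSO, 242 CPM at 0.2 µM and 514 CPM at 0.4 µM (edgeR log2 1.05 ± 0.32 SE, adjusted p = 0.0314 between the doses), a call that was lost without the run 5 culture at 0.4 µM (edgeR log2 1.01) and without DMSO of run 3 or of run 6. PFKL, the liver phosphofructokinase, fell, with 14.8 CPM at 0.4 µM and 59.8 CPM at 0.2 µM (edgeR log2 -1.89 ± 0.46 SE, adjusted p = 0.0112), but not without the run 5 culture at 0.4 µM (edgeR log2 -1.75). TUBB4B, a beta tubulin, was at 61.2 CPM in DMSO, 53.2 CPM at 0.2 µM and 143 CPM at 0.4 µM, and run 6 had 256 CPM at 0.4 µM and 44.2 CPM in DMSO (edgeR log2 1.90 ± 0.51 SE, adjusted p = 0.0176 between the doses), and it was not called without the run 6 culture at 0.4 µM (edgeR log2 1.42). Genes of mitosis were not called in either direction at the second step (0 of 20 in edgeR, 1 higher with TMM factors), and MKI67, a marker of proliferation, was at 69.1 CPM in DMSO, 153 CPM at 0.2 µM and 154 CPM at 0.4 µM in run 5 and run 6 had 257 CPM at 0.4 µM and 20.1 CPM in DMSO (adjusted p = 0.788 from edgeR).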
